A study of Mus musculus with 6 samples.

Results

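Plasma cells secrete antibody, and like other secreting cells they fold and check new proteins in the endoplasmic reticulum (ER). From 31771 genes counted in mouse spleen, 40 genes of this kind were taken by symbol, a list of plasma cell regulators, sensors of unfolded protein, ER chaperones, isomerases, degradation factors and translocation factors. All 40 had counts high enough to be tested. The lowest count of any of them in any library was 89. RNA came from spleen pieces of 6 C57BL/6 mice, 3 of them mutant (VEC-Cre, an SB Transposase and onc2) and 3 WT controls, with no treatment, age or litter in the sources used here. VEC-Cre is Cre recombinase driven by the promoter of VE-cadherin, an adhesion protein of endothelium, and it also marks blood cells that descend from embryonic endothelium. Sleeping Beauty transposition can move the onc2 transposon to different sites in different cells and animals, and insertion sites were not analysed here. The design text speaks of 3 animals in each group, and replicate numbers only name them.

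Libraries held 72902118 to 79258116 counts. Xist was at 580 and 1513 CPM (counts per 1000000 of a library) in mutants 2 and 1 and under 1 CPM in mutant 3 and the controls, where the Y-linked Ddx3y was at 55.0 to 62.7 CPM. Mutants 1 and 2 thus differed in sex from mutant 3 and the controls. Spleen genes had counts in all 6 libraries, but not at like levels. Tlx1 was at 27.4 to 31.3 CPM in control mice and lower, at 8.48 to 13.9 CPM, in mutant mice (adjusted p = 0.0277 by the edgeR test described below). Spic was at 89.2 to 103.6 CPM in control mice and 10.3, 110.8 and 20.1 CPM in mutant mice 1, 2 and 3. The biological coefficient of variation was 72.7% among the mutants and 17.1% among the controls. In bulk tissue, fewer cells of a type and less RNA per cell cannot be told apart.

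A plasma cell is a B cell that has turned into an antibody factory. The factors IRF4 and BLIMP1 (Prdm1) shut down the B-cell programme and XBP1 widens the secretory pathway. Every secreting cell, and any fast-growing cell, keeps the same machinery. Chaperones hold unfolded chains, isomerases form and shuffle disulfide bonds, and a degradation route pulls failed chains back to the cytosol. When unfolded chains build up, the membrane sensors IRE1 (Ern1), ATF6 and PERK (Eif2ak3) start the unfolded protein response, which raises these genes through XBP1, ATF6 and ATF4.

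In the mutant spleens the list split. Of the 40 genes, 5 rose, 8 fell and 27 did not pass. The test was edgeR's quasi-likelihood test, fitted to all 19573 genes with enough counts, with a threshold of 0.05 on the adjusted p. The genes that rose were the chaperone genes Canx, Sdf2l1 and Manf and the isomerase genes P4hb and Pdia3. The genes that fell were Irf4, Eaf2 and Mzb1 of the plasma cell group, the sensor gene Eif2ak3, the isomerase genes Pdia4 and Txndc5, and the degradation genes Syvn1 and Derl3. The share that passed was 32.5%, against 12.0% of all genes tested, and no set test was run. Over all genes 5.08% rose and 6.90% fell. The median log2 fold change of mutant over control was -0.01 over the 40 genes, with 20 above 0 and 20 below, and 0.10 over all genes. The 40 genes had a median level of 110.3 CPM against 11.3 CPM for all tested genes. Summed, the 40 genes made up 5153 to 5280 CPM in control mice and 5716, 5288 and 6681 CPM in mutant mice 1, 2 and 3. The CPM of the groups did not overlap for 25 of the 40 genes (62.5%), 11 higher and 14 lower in the mutants, and for 40.5% of all tested genes.

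**Figure D1:**
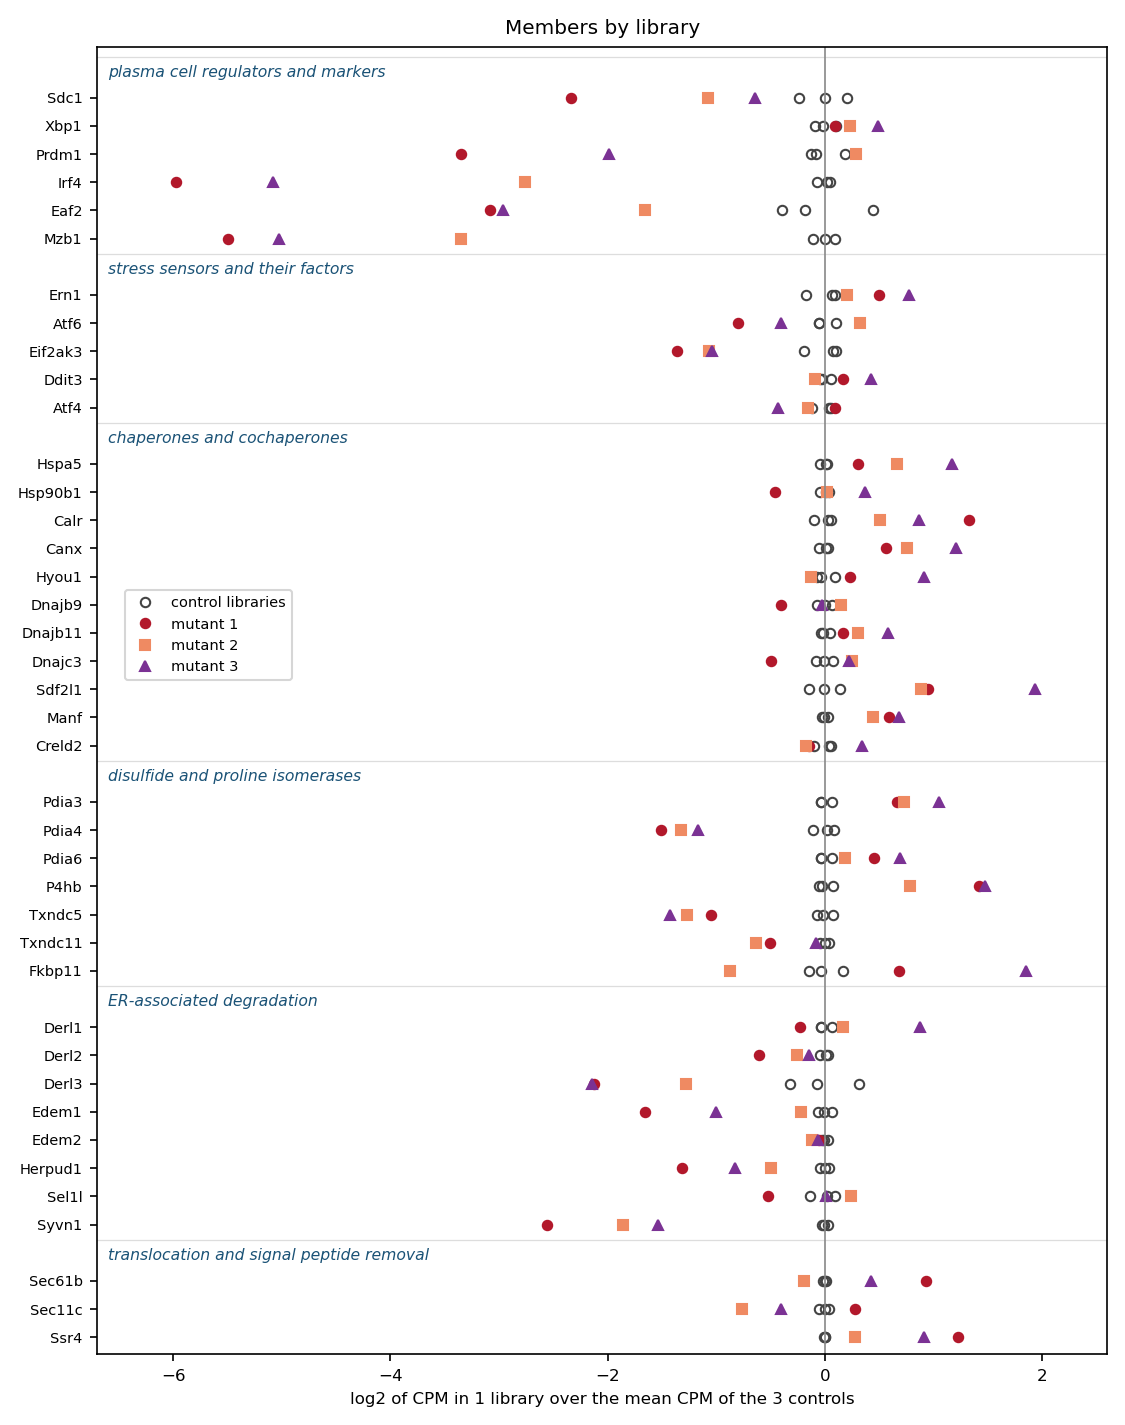
CPM of each of the 40 genes in each library, as log2 over the mean of the 3 controls (x axis), by role. Open circles are controls and filled symbols the 3 mutants; controls lie close together, Irf4 and Mzb1 lie far to the left in every mutant, and Prdm1, Atf6, Fkbp11 and Derl1 have mutants on both sides of 0.

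These calls need all 3 controls. Without control 1, 2 or 3, 0 of the 40 genes passed by edgeR, where 15 of 40 had an unadjusted p under 0.05 each time, including all 13 called genes, and 0.665%, 0.601% and 0.667% of all genes tested passed. The adjusted p of the 13 genes then lay between 0.0756 and 0.230. Without mutant 2, 10 genes were higher and 12 lower, where 29.0% of all genes passed, and without mutant 3, 2 were higher and 5 lower, where 10.4% of all genes passed. Without mutant 1 the median of the 40 genes was 0.15. By DESeq2 with all libraries 10 rose and 9 fell, against 28.9% of all genes called, with Calr, Ern1, Hspa5, Pdia6 and Ssr4 added to the higher genes and Herpud1 to the lower. With upper-quartile factors, or with library totals alone, the split was 2 higher and 8 lower, where 11.3% and 11.5% of all genes passed. Upper-quartile factors moved the median log2 fold change of all genes by -0.10.

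The start regions of these genes were searched for the short DNA motifs through which the unfolded protein response acts, to see which of the genes share them. The ER stress response element, CCAAT and CCACG with a gap of 9 bases between them, is read by ATF6 with NF-Y and by XBP1. RefSeq promoters (GRCm38.p6, 250 bases before to 50 after a gene's start) were matched by symbol for 34 of the 40 genes, and exact matches were taken on both strands. The element was in 9 of the 34 genes (26.5%), against 37 of 27025 genes with a promoter in the table (0.137%) and 39 of 32851 promoters (0.119%). The list was chosen to hold genes of the unfolded protein response, which acts through these motifs. The larger share of the element, and of the motifs below, was in part fixed by that choice and is no result of these data. Of the 37 genes, 22 were tested, of which 1 rose and 3 fell. The matches are shown in the direction in which the motif reads, with the CCAAT and CCACG blocks in capitals:
Canx: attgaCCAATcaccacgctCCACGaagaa
Syvn1: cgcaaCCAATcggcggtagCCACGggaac
Derl3: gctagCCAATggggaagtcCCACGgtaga
Hspa5: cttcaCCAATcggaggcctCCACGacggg
Calr: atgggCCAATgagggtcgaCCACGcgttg
Pdia6: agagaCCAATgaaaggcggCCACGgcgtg
Dnajc3: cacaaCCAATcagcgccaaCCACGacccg
Creld2: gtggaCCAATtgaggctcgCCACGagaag
Hsp90b1, near match: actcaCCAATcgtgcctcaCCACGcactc
Hsp90b1, far match: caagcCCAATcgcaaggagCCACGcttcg

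All of these lie before the RefSeq start, and coordinates are those of the printed bases. The match of Hspa5 is nevertheless within the GENCODE span of its gene, which starts at 34771970. The nearest base of the element is 26 bases before the start in Syvn1 (chr19:6046527-6046555, plus strand), 47 in Hspa5 (chr2:34772020-34772048, plus strand), 127 in Canx (chr11:50325795-50325823, minus strand) and 138 in Derl3 (chr10:75893237-75893265, read on the minus strand, opposite to the gene). In Pdia6 it is 80 bases before the start (chr12:17266486-17266514, plus strand) and in Dnajc3 87 (chr14:118937822-118937850, plus strand). It reads opposite to the gene in Creld2, 108 bases before the start (chr15:88819515-88819543, minus strand), and in Calr, 144 before it (chr8:84847070-84847098, plus strand). The near match of Hsp90b1 is 89 bases before the start (chr10:86705528-86705556, plus strand, opposite to the gene) and the far match 194 (chr10:86705633-86705661, minus strand). Of the 9 genes, 1 rose (Canx), 2 fell (Syvn1 and Derl3) and 6 did not pass, where 32.5% of the 40 genes and 12.0% of all genes tested passed. Canx, the only higher gene, passed in 9 of the 14 alternative fits that kept the 3 controls. Derl3 passed in 10 of them and Syvn1 in all 14.

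The second form of the element, ATTGG and CCACG with 1 base between, was in 2 of the 34 genes (5.88%) against 0.0444% of all genes. In Dnajb11 it lies after the start, and in Herpud1 its last base is 42 bases before the start (chr8:94386372-94386392, plus strand). The XBP1 core TGACGTGG, whose reverse complement holds CCACG as the elements do, was in Txndc5 and Txndc11 (5.88%, against 0.714% of all genes). The ATF4 core TTGCATCA was in Herpud1 alone of the 34 (2.94%, against 1.03% of all genes). None of the 34 genes' promoters held the XBP1 core together with either element. Of the 4 such matches before the start, those of Herpud1, which holds motifs of both kinds, and of Txndc5, which fell, are shown, and that of Txndc11, which did not pass, is not, with the motif in capitals:
Herpud1, second element: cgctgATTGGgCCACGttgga
Herpud1, ATF4 core: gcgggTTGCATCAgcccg
Txndc5, XBP1 core: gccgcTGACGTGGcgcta

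The ATF4 core of Herpud1 is 105 bases before the RefSeq start (chr8:94386312-94386329, plus strand). The XBP1 core of Txndc5 is 131 bases before it (chr13:38528040-38528057, minus strand), within the GENCODE span of the gene. A match is a stretch of letters and shows no binding.

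Of the 6 plasma cell regulators and markers 3 fell and none rose, with a median log2 fold change of -1.78 against 0.10 over all genes. Irf4, the factor that activated B cells need to become plasma cells (ENSMUSG00000021356, chromosome 13, 30749226 to 30766976), was at 104, 111 and 114 CPM in controls 1, 2 and 3 and at 1.74, 16.2 and 3.24 CPM in mutant mice 1, 2 and 3. All mutants were far below all controls, and mutant 2 held the most of the mutants. The mean fell from 109.7 ± 4.75 to 7.05 ± 7.93 CPM (mean ± SD, n = 3 in each group throughout), a log2 change of -3.89 ± 0.92 (± SE) with an adjusted p of 0.0461. Without mutant 3 it no longer passed (adjusted p = 0.0979), nor with no filter on low counts, and without mutant 2 the log2 change was -5.49.

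Mzb1, an ER cochaperone of B and plasma cells that helps assemble immunoglobulin M (ENSMUSG00000024353), was at 173, 151 and 163 CPM in the controls and 3.59, 15.9 and 4.99 CPM in the mutant mice. Again mutant 2 was highest of the mutants and still far under the controls. Its log2 change was -4.26 ± 0.67 (adjusted p = 0.0175), and -5.28 without mutant 2. The annotation holds a second gene model, SPATA24, that shares 57.2% of the exon bases of Mzb1 on the same strand and was not analysed here. Eaf2, an elongation factor gene that is high in germinal centre and plasma cells (ENSMUSG00000022838, chromosome 16, 36792884 to 36875003), was at 15.3, 9.97 and 8.60 CPM in control mice and 1.33, 3.59 and 1.45 CPM in mutant mice. The groups did not overlap, and the log2 change was -2.38 ± 0.56 (adjusted p = 0.047). Eaf2 no longer passed without mutant 1 (adjusted p = 0.063) or mutant 3 (adjusted p = 0.0923), and in 3 other settings.

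The other 3 genes of this group did not pass. Sdc1, which encodes the plasma cell surface proteoglycan CD138 and is also made by epithelia, was at 23.5, 20.5 and 17.3 CPM in control mice and 4.03, 9.72 and 13.1 CPM in mutant mice. All mutants were below all controls, yet the log2 difference of -1.19 ± 0.46 had an adjusted p of 0.14. Prdm1 was at 14.2, 11.8 and 11.4 CPM in control mice and 1.22, 15.2 and 3.15 CPM in mutant mice. Mutant 2 stood above every control and mutants 1 and 3 far below (log2 -0.87 ± 0.91, adjusted p = 0.553). Without mutant 2 Prdm1 passed as lower (log2 -2.55, adjusted p = 0.0218).

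Xbp1, the factor that IRE1 activates by splicing its RNA, was at 142, 124 and 131 CPM in control mice and 141, 156 and 186 CPM in mutant mice. The groups overlapped, with mutant 3 highest of all libraries (log2 0.29 ± 0.17, adjusted p = 0.296). Gene counts do not separate the spliced from the unspliced form.

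Markers of B cells and plasma cells were below the controls in every mutant. The 9 B-cell markers, of which Cd37 was most abundant, all fell and summed to 6717 to 7583 CPM in control mice and 157 to 207 CPM in mutant mice. The 7 plasma cell markers, which include the joining chain gene Jchain and immunoglobulin constant genes and of which Ighm was most abundant, summed to 19955 to 23842 CPM in control mice and to 881, 6656 and 1728 CPM in mutant mice 1, 2 and 3, and Igkc was the 1 of the 7 that fell. For all 7 the mutants were below the controls. Without a control, 6 of the B-cell markers and 0 of the plasma cell markers passed by edgeR, though 4 of the 7 had an unadjusted p under 0.05 and 4 passed by DESeq2 with all libraries. No marker of either list was at 0 in any library. The 7 T-cell markers, Lck the most abundant, summed to 534 to 670 CPM in control mice and to 29.2, 284.5 and 23.1 CPM in the mutant mice. Single markers did not all follow these sums. The plasma cell sum of mutant 2 was mostly Ighm (4187 CPM) and Igkc (2099 CPM), while Igha was at 20.9, 91.1 and 472 CPM and Ighg1 at 17.98, 3.98 and 54.4 CPM in mutants 1, 2 and 3, highest in mutant 3, as Sdc1 was. The T-cell sum of mutant 2 was mostly Cd4, at 197 CPM there against 85.0 to 107 CPM in the controls, whereas the other 6 T-cell markers were below the controls in mutant 2. Irf4, Mzb1, Eaf2 and Prdm1 were highest of the mutants in mutant 2. The part of these cells in the results on the other roles was not tested.

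Among the stress sensors and their factors, 1 of 5 genes passed, and the median log2 fold change was -0.14. Eif2ak3, which encodes PERK, the kinase that slows translation under ER stress (ENSMUSG00000031668, chromosome 6, 70844515 to 70905245), was at 53.0, 64.9 and 63.9 CPM in control mice and 23.5, 28.9 and 29.5 CPM in mutant mice. Every mutant was under the lowest control and the 3 mutants lay close together. It fell by 1.14 ± 0.19 on the log2 scale (adjusted p = 0.0192), and still passed when any 1 mutant was left out, but not by limma-voom where each group had its own variance. A gene model on the opposite strand shares 8.05% of its exon bases.

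The other sensor genes did not pass. Ern1, which encodes IRE1, was at 37.2, 31.5 and 37.9 CPM in control mice and 50.4, 41.0 and 60.7 CPM in mutant mice. The mutants were all above the controls (log2 0.52 ± 0.18), without passing the test (adjusted p = 0.119). Atf6 was at 58.3, 58.4 and 65.2 CPM in control mice and 34.9, 76.2 and 45.8 CPM in mutant mice. Mutant 2 was above all controls and mutants 1 and 3 below (log2 -0.18 ± 0.33, adjusted p = 0.742). Without mutant 2, Ern1 passed as higher (adjusted p = 0.0353) and Atf6 as lower (adjusted p = 0.04).

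Downstream of PERK, Atf4 and Ddit3 did not pass. Atf4, the transcription factor that PERK signalling lets be translated, was at 261.7, 265 and 235 CPM in control mice and 272, 228 and 188 CPM in mutant mice (log2 -0.14 ± 0.21, adjusted p = 0.689). Ddit3, which encodes the death-linked factor CHOP, was at 25.5, 25.2 and 27.1 CPM in control mice and 29.1, 24.3 and 34.7 CPM in mutant mice (log2 0.19 ± 0.18, adjusted p = 0.521). The groups overlapped for both genes. ATF4 is controlled mainly in translation, which these counts do not measure.

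**Figure D2:**
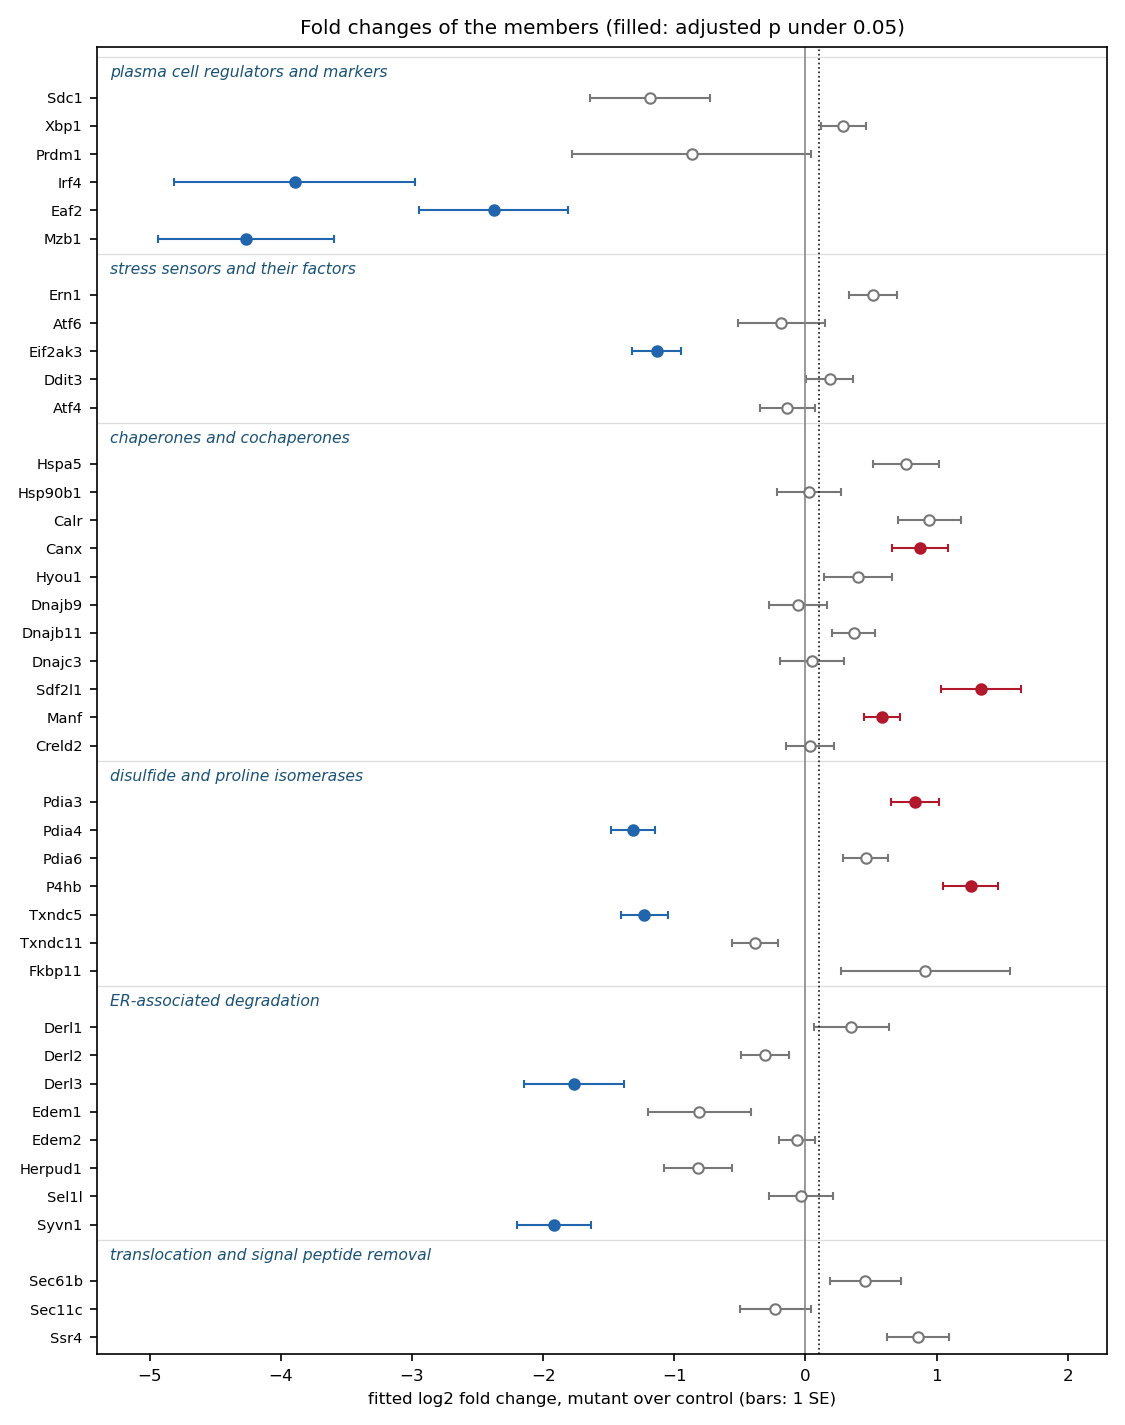
Fitted log2 fold changes of the 40 genes, mutant over control, with bars of 1 SE, by role; filled points passed at an adjusted p under 0.05 and the dotted line is the median of all genes tested (0.10). Chaperones lie mostly to the right (3 of them turn below 0 with upper-quartile factors), degradation genes mostly to the left, and the isomerases fall on both sides.

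Chaperones and cochaperones rose where they passed. Of 11 genes 3 rose and none fell (1 rose with upper-quartile factors, 0 with library totals alone, where 5 had an unadjusted p under 0.05, and 5 by DESeq2). Of the 11, 10 had a fitted log2 fold change above 0 (7 with upper-quartile factors). Hsp90b1, Dnajc3 and Creld2 were above 0 but under the median of all genes, 0.10. The mutants were all above the controls for 6 of the 11, where the groups did not overlap in either direction for 40.5% of all tested genes. The median log2 fold change of the 11 was 0.40. Summed over the 11 genes, the level was 1715 to 1783 CPM in control mice and 2510, 2362 and 3173 CPM in mutant mice 1, 2 and 3. Canx encodes calnexin, a membrane lectin that holds new glycoproteins (ENSMUSG00000020368, chromosome 11, 50293961 to 50325673). Its level was 249, 238 and 252 CPM in control mice and 364, 417 and 569 CPM in mutant mice. All mutants were above all controls, and mutant 3 was highest (log2 0.88 ± 0.21, adjusted p = 0.0487). Sdf2l1, a cofactor of BiP (ENSMUSG00000022769, chromosome 16, 17130138 to 17132383), was at 20.3, 22.4 and 24.8 CPM in control mice and 43.4, 41.5 and 86.0 CPM in mutant mice. Mutants 1 and 2 were alike and mutant 3 stood well above them (log2 1.34 ± 0.30, adjusted p = 0.0421). Without mutant 3 its log2 change was 0.96. Sdf2l1 did not pass with library totals alone.

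Manf, a secreted ER stress protein that binds BiP (ENSMUSG00000032575, chromosome 9, 106838312 to 106891979), was at 88.2, 84.9 and 85.8 CPM in control mice and 130.2, 117 and 138 CPM in mutant mice. The 3 mutants lay close together above the controls (log2 0.58 ± 0.14, adjusted p = 0.0458). Canx and Manf no longer passed without mutant 3 (adjusted p = 0.067 and 0.0608). They also did not pass with upper-quartile factors, library totals or no filter on low counts, nor Canx with immunoglobulin segments left out or Manf where each group had its own variance.

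Hspa5 encodes BiP, the central ER chaperone whose release starts the sensors. It was at 313, 327 and 325 CPM in control mice and 398, 511 and 725 CPM in mutant mice. Every mutant was above every control, closest to them in mutant 1 and farthest in mutant 3 (log2 0.77 ± 0.25, adjusted p = 0.0989). Calr, which encodes the soluble lectin calreticulin, was at 366, 399 and 408 CPM in control mice and 983, 557 and 714 CPM in mutant mice. Here mutant 1 was highest (log2 0.94 ± 0.24, adjusted p = 0.0553). Neither passed in the full comparison; without mutant 1 both did (adjusted p = 0.0264 for Hspa5 and 0.0425 for Calr), and without mutant 2 Calr did (adjusted p = 0.0133).

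Hsp90b1, the ER form of the Hsp90 chaperone, was at 296, 302 and 285 CPM in control mice and 214, 298 and 381 CPM in mutant mice. The controls sat in the middle of the mutants (log2 0.02 ± 0.24, adjusted p = 0.956), and its promoter holds 2 of the elements shown above. The remaining chaperone genes did not pass. Hyou1, a large relative of Hsp70, was at 97.5, 99.8 and 109 CPM in control mice and 121, 93.5 and 192 CPM in mutant mice, with mutant 2 under the controls (adjusted p = 0.331). Dnajb11, Dnajc3 and Dnajb9 encode J-domain partners of BiP, and Creld2 an ER stress protein. Dnajb11 was at 96.6 to 102 CPM in control mice and 112 to 148 CPM in mutant mice, with no overlap (adjusted p = 0.185). Dnajc3 was at 104, 98.8 and 110.1 CPM in control mice and 74.1, 125 and 122 CPM in mutant mice, with mutant 1 low and the others high. Dnajb9 (26.7 to 29.5 CPM in controls, 21.2 to 31.1 CPM in mutant mice) and Creld2 (50.9 to 57.0 CPM in controls, 48.5 to 69.6 CPM in mutant mice) also had mutants on both sides of the controls. The log2 fold changes of these 3 genes were 0.05, -0.06 and 0.03, and the first and last turned below 0 with upper-quartile factors, as did that of Hsp90b1.

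The 7 isomerases split, with 2 higher, 2 lower and a median log2 fold change of 0.46. P4hb, the main protein disulfide isomerase and a subunit of prolyl hydroxylase (ENSMUSG00000025130, chromosome 11, 120560298 to 120573253), was at 201, 205 and 220.1 CPM in control mice and 559, 360.2 and 581 CPM in mutant mice. Mutants 1 and 3 were alike and mutant 2 lower, all well above the controls (log2 1.26 ± 0.21, adjusted p = 0.0201). Pdia3, the isomerase that works with calnexin and calreticulin (ENSMUSG00000027248, chromosome 2, 121413775 to 121438687), was at 294, 295 and 316 CPM in control mice and 479, 499 and 627 CPM in mutant mice. No mutant overlapped a control (log2 0.83 ± 0.18, adjusted p = 0.0359), and it did not pass without mutant 3 (adjusted p = 0.053) or with upper-quartile factors.

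Pdia4, an isomerase that works with BiP (ENSMUSG00000025823, chromosome 6, 47796141 to 47813430), went the other way. It was at 238, 217 and 248 CPM in control mice and 82.1, 93.5 and 104 CPM in mutant mice. The 3 mutants lay close together, far below the controls (log2 -1.32 ± 0.17, adjusted p = 0.0107). Txndc5, a disulfide isomerase abundant in plasma cells and endothelium (ENSMUSG00000038991, chromosome 13, 38500079 to 38528824), was at 299.7, 281 and 271 CPM in control mice and 137, 118 and 106 CPM in mutant mice. It fell by 1.23 ± 0.18 on the log2 scale (adjusted p = 0.0152), with no overlap. The Pdia4 and Txndc5 calls, like those of P4hb, Mzb1 and Syvn1, held in all 14 alternatives that kept the 3 controls.

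The other 3 isomerases did not pass. Pdia6 was at 155 to 166 CPM in control mice and 181 to 256 CPM in mutant mice, above the controls in each mutant (log2 0.46 ± 0.17, adjusted p = 0.128). Txndc11 was at 65.6 to 69.6 CPM in control mice and 43.7 to 63.9 CPM in mutant mice, below the controls in each mutant (log2 -0.38 ± 0.17, adjusted p = 0.193). Fkbp11, a proline isomerase gene of secretory cells, was low, at 5.05, 4.40 and 4.06 CPM in control mice and 7.26, 2.46 and 16.3 CPM in mutant mice. Mutant 2 was under the controls and mutant 3 far above them (log2 0.92 ± 0.64, adjusted p = 0.375).

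**Figure D3:**
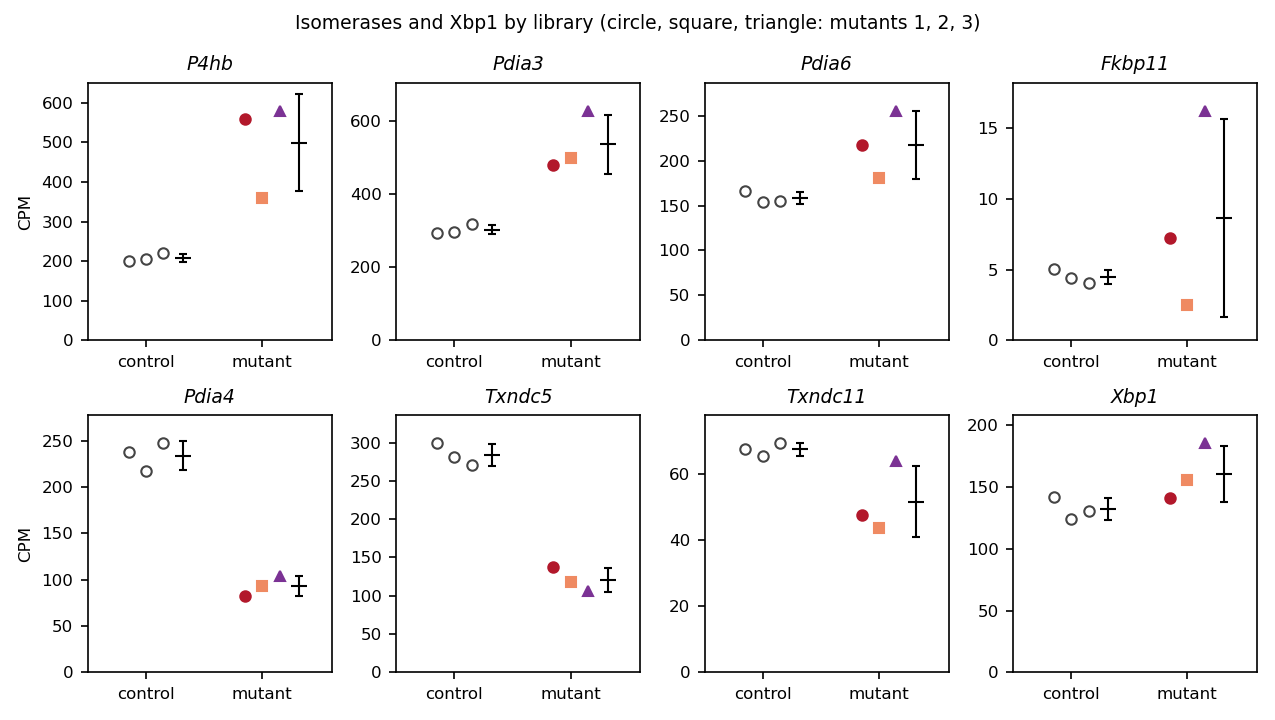
CPM by library of the 7 isomerase genes and Xbp1 (y axis from 0; open circles are controls, filled symbols mutants, black bars mean ± SD of 3). P4hb and Pdia3 lie above the controls in every mutant, Pdia4 and Txndc5 below in every mutant, and Fkbp11 on both sides.

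Per kilobase of annotated exon, in CPM per kilobase, the order of the genes changed with this split. In controls Calr was highest at 135.8 CPM per kilobase and Mzb1 next at 133.7, with Pdia4 at 97.6 and Pdia3 at 96.1. In mutants Calr was first at 260.8, P4hb second at 174.7 and Pdia3 next at 170.5, while Pdia4 stood at 38.8 and Mzb1 at 6.71. Neighbours in the order such as Calr and Mzb1, or Pdia4 and Pdia3, in controls differed by less than the spread between libraries.

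Degradation genes fell where they passed. Of 8 genes 2 fell, none rose, and 7 had a fitted log2 fold change below 0. The median of the 8 was -0.56, against 0.10 over all genes. Syvn1 encodes HRD1, the ubiquitin ligase at the centre of this route (ENSMUSG00000024807, chromosome 19, 6046576 to 6053712). Its level was 246, 243 and 253 CPM in control mice and 42.0, 68.2 and 85.1 CPM in mutant mice. The controls lay close together and the highest mutant was far below them (log2 -1.91 ± 0.28, adjusted p = 0.0152). Derl3, a derlin made by secretory cells such as plasma cells (ENSMUSG00000009092, chromosome 10, 75893413 to 75895941), was at 31.4, 23.9 and 20.1 CPM in control mice and 5.76, 10.4 and 5.71 CPM in mutant mice. Mutant 2 was again highest of the mutants (log2 -1.77 ± 0.38, adjusted p = 0.0359). Derl3 no longer passed without mutant 1 (adjusted p = 0.0529) or mutant 3 (adjusted p = 0.0752), and in 2 other settings.

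The broadly made derlins did not pass. Derl1 was at 131, 122 and 122 CPM in control mice and 107, 141 and 230.2 CPM in mutant mice, with mutant 3 far above and mutant 1 below the controls (log2 0.35 ± 0.29, adjusted p = 0.45). Derl2 was at 57.8 to 60.8 CPM in control mice and 39.2 to 53.7 CPM in mutant mice (log2 -0.31 ± 0.18, adjusted p = 0.294). Whether the derlins differ from one another in their change was not tested.

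Sel1l, the partner of HRD1, was at 93.6 ± 7.54 CPM in control mice and 89.9 ± 22.9 CPM in mutant mice, and overlapped (adjusted p = 0.93). Edem1 and Edem2 act on the glycans of failed proteins. Edem1 was at 152, 139 and 145 CPM in control mice and 46.2, 125 and 72.6 CPM in mutant mice. Mutant 2 came near the controls and mutant 1 was lowest (log2 -0.81 ± 0.39, adjusted p = 0.216). Edem2 was nearly level, at 71.6 to 74.2 CPM in control mice and 67.2 to 70.1 CPM in mutant mice with no overlap (log2 -0.07 ± 0.14, adjusted p = 0.773). Herpud1, a scaffold of the HRD1 complex, was at 159, 164 and 169 CPM in control mice and 66.0, 117 and 92.2 CPM in mutant mice. The groups did not overlap (log2 -0.82 ± 0.26, adjusted p = 0.0899). Without mutant 2 both Edem1 and Herpud1 passed as lower (adjusted p = 0.015 and 0.0134).

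None of the 3 translocation genes passed by edgeR, 1 had an unadjusted p under 0.05, and Ssr4 passed by DESeq2. Ssr4, a subunit of the complex that sits beside the translocation channel and an X-linked gene (ENSMUSG00000002014, chromosome X, 73787028 to 73790830), was at 95.6, 96.1 and 95.2 CPM in control mice and 224, 116 and 180.3 CPM in mutant mice. The controls were almost equal and all mutants higher (log2 0.86 ± 0.24, adjusted p = 0.0673). Without mutant 2 Ssr4 passed as higher (adjusted p = 0.00907). Mutants 1 and 2 differed in sex from the controls, so sex and group are partly confounded here. The part of sex in the level of Ssr4 was not tested. Sec61b, a subunit of the channel, was at 126, 124 and 127 CPM in control mice and 239, 109.9 and 169 CPM in mutant mice, with mutant 2 under the controls (adjusted p = 0.3, and 0.0484 without mutant 2). Sec11c, a subunit of signal peptidase, was at 166, 177 and 173 CPM in control mice and 209, 101 and 130.3 CPM in mutant mice, with mutant 1 above and the others below (adjusted p = 0.602).

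Other genes of these pathways, 94 that are not in the list, gave 11 higher and 6 lower (18.1%, against the 12.0% of all genes), with a median log2 fold change of 0.34. Without any single control, 0 of the 94 were higher and 2 lower by edgeR (Pax5 and Pou2af1), with 24 or 25 at an unadjusted p under 0.05. Without mutant 1, 18 were higher, where 18.2% of all genes passed. Without mutant 2, 29 were higher and 12 lower, and by DESeq2 29 were higher and 8 lower, where 29.0% and 28.9% of all genes passed. Translocation factors rose in 3 of 13. These 3 were Ssr1, Ssr2 and Ssr3, the partner subunits of Ssr4. Ssr1 was at 137, 129 and 127 CPM in control mice and 365, 230.0 and 279 CPM in mutant mice, with no overlap (log2 1.16 ± 0.20, adjusted p = 0.0225). For Ssr3 the change was 0.83 ± 0.16 (adjusted p = 0.0282) and for Ssr2 1.13 ± 0.26 (adjusted p = 0.0434), which did not pass without mutant 1 or mutant 3 (adjusted p = 0.0534 and 0.086). Glycosylation and glycan-check genes rose in 3 of 13, namely Rpn2, Ddost and Lman1. Rpn2 and Ddost, subunits of the enzyme that attaches glycans, changed by 0.87 ± 0.16 (adjusted p = 0.024) and 0.85 ± 0.16 (adjusted p = 0.0258). Lman1, a cargo receptor for glycoproteins, changed by 0.75 ± 0.15 (adjusted p = 0.0298).

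Among 14 other chaperones and oxidoreductases, 1 rose and 1 fell. Ero1b, an oxidase that recharges disulfide isomerases, was at 65.4, 99.1 and 113 CPM in control mice and 19.3, 22.1 and 13.5 CPM in mutant mice. It fell by 2.31 ± 0.31 on the log2 scale (adjusted p = 0.0127), with no overlap. Sil1, the nucleotide exchange factor of BiP, rose (log2 0.84 ± 0.18, adjusted p = 0.0345). Of 8 retrieval and export genes 1 rose, Tmed2, a cargo carrier of transport vesicles (log2 0.69 ± 0.15, adjusted p = 0.0366). Kdelr2, a receptor that returns escaped chaperones to the ER, was at 40.4, 42.5 and 42.2 CPM in control mice and 64.0, 62.4 and 106 CPM in mutant mice (adjusted p = 0.056). Of 14 other degradation factors 0 passed by edgeR, 2 had an unadjusted p under 0.05 and 1 passed by DESeq2. Vcp, the motor that pulls proteins from the ER, was at 254 ± 5.67 CPM in control mice and 343 ± 18.8 CPM in mutant mice (adjusted p = 0.113), and its adaptor Nploc4 at 77.6 ± 3.47 CPM in control mice and 112 ± 22.9 CPM in mutant mice (adjusted p = 0.137). Of 6 other sensors and membrane proteases 0 passed by edgeR, also at an unadjusted p under 0.05, and 1 passed by DESeq2. The protease gene Mbtps2 had an adjusted p of 0.179 and Creb3l1 of 0.215 by edgeR.

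Of 14 targets of PERK and ATF4, 3 rose and 1 fell. Asns, which makes asparagine, was at 17.0, 17.7 and 15.5 CPM in control mice and 35.4, 79.7 and 104 CPM in mutant mice, with every mutant above the controls (log2 2.13 ± 0.41, adjusted p = 0.0276). Psat1, an enzyme of serine synthesis, and Sesn2, a stress-induced leucine sensor, also rose (log2 1.67 ± 0.36 and 0.90 ± 0.21, adjusted p = 0.0359 and 0.0426). Without mutant 3 Asns, Psat1 and Sesn2 no longer passed (adjusted p = 0.0542, 0.0681 and 0.0698). Slc7a11, the cystine transporter, was at 25.6, 24.7 and 31.5 CPM in control mice and 5.77, 3.19 and 1.21 CPM in mutant mice and fell (log2 -2.99 ± 0.59, adjusted p = 0.0289). Of the 5 cell cycle markers 4 rose. Mki67, the most abundant, was at 177 to 353 CPM in control mice and 559, 1768 and 1027 CPM in mutant mice 1, 2 and 3. All mutants were above all controls for Mki67, which did not pass (log2 2.05 ± 0.53, adjusted p = 0.0578). The sum of the 5 cell cycle markers was 376 to 647 CPM in control mice and 1413, 2748 and 2063 CPM in mutant mice 1, 2 and 3. Their part in the result was not tested.

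In the group of other plasma cell factors and their B-cell antagonists, 4 of 12 fell and none rose. Pax5, which holds B cells in their identity and is silenced in plasma cells, went from 785 ± 44.7 to 5.60 ± 2.08 CPM (log2 -7.13 ± 0.37, adjusted p = 0.000843). Pou2af1, a B-cell coactivator that plasma cells keep, went from 358 ± 14.9 to 12.0 ± 5.21 CPM (log2 -4.86 ± 0.41, adjusted p = 0.00379). Bcl6 and Tnfrsf13b fell as well: Bcl6 is the germinal centre factor opposed to Prdm1 and Tnfrsf13b a receptor of B and plasma cells, which did not pass without mutant 3 (adjusted p = 0.0649). Jchain, the joining chain of secreted antibody, was at 1389, 1099.6 and 1014 CPM in control mice and 27.5, 256 and 66.3 CPM in mutant mice (adjusted p = 0.0626), with mutant 2 again the highest mutant.

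**Figure D4:**
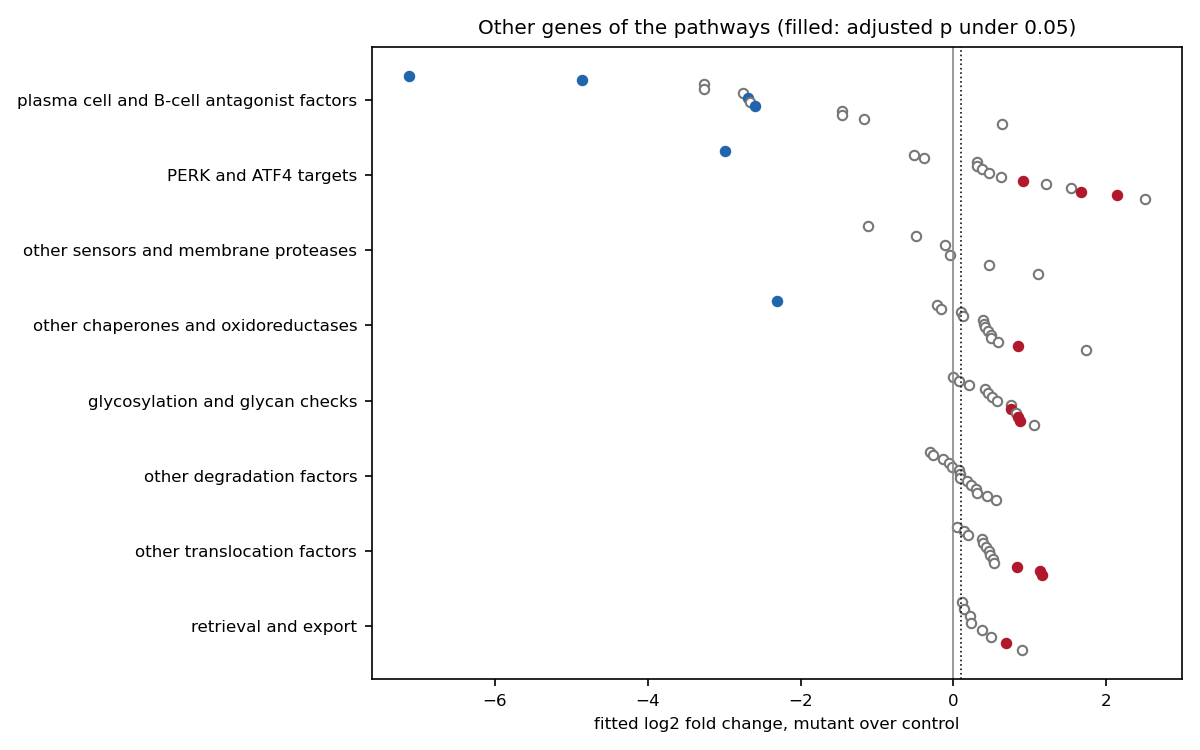
Fitted log2 fold changes of the 94 other genes of the pathways (x axis), 1 point per gene, by group; filled points passed at an adjusted p under 0.05 and the dotted line marks the median of all genes. The filled points of translocation, glycosylation and export lie to the right of 0 and those of the plasma cell and B-cell group to the left.

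The mutants also differed from one another. All 40 genes varied more between mutants than between controls, with a median coefficient of variation of 27.1% against 4.90%. Over all genes tested these medians were 44.2% and 11.3%. Mutant 3 was the highest of the mutants for 22 of the 40 genes and mutant 1 the lowest for 22. The same counts were not made over all genes tested. Chaperone medians were 0.22, 0.40 and 0.63 in mutants 1, 2 and 3, as log2 over the control mean, and degradation medians -0.98, -0.14 and -0.54. Mutant 3 was thus highest in chaperones, and mutant 1 lowest in degradation genes.

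Markers of other cells differed along with them. The 5 granulocyte precursor markers summed to 23.3 to 54.2 CPM in control mice and 577, 343 and 389 CPM in mutant mice 1, 2 and 3, with 4 of 5 higher and Prtn3 the most abundant. The 5 megakaryocyte markers summed to 216 to 393 CPM in control mice and 2850, 649 and 4590 CPM in the mutant mice, with 3 of 5 higher (0 without mutant 3, where 5 had an unadjusted p under 0.05) and Itga2b the most abundant. Mutants 1 and 3 thus held the most megakaryocyte RNA. The 7 monocyte and macrophage markers, Vcam1 the most abundant, summed to 717 to 968 CPM in control mice and 275, 4032 and 532 CPM in the mutant mice, with 0 of 7 called by edgeR or DESeq2 and 1 at an unadjusted p under 0.05 by edgeR. The sum of mutant 2 alone was above the controls here. The 8 erythroid markers, mostly haemoglobin RNA such as Hbb-bs, summed to 52180.5 to 81624 CPM in control mice and 4668, 44818 and 3427 CPM in the mutant mice, with 1 higher (Epor). The haemoglobin genes set this sum, and other erythroid markers went the other way. The median log2 fold change of the 8 was 1.69, with 5 above 0 and 3 below. Gata1, Tfrc and Epor were above the controls in every mutant, and Hbb-bs and Hba-a1 below them in every mutant. The 6 markers of spleen mesenchyme and endothelium, Pecam1 the most abundant, summed to 498 to 552 CPM in control mice and 243, 355 and 415 CPM in the mutant mice, with 3 lower. Each of these markers had counts in every library. The part of these cells in the changes of ER genes was not tested.

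Pancreas lies beside the spleen and its acinar cells are rich in ER chaperones. Of 10 acinar markers found in the table, all but Cela1 were at or near 0, with at most 0.404 CPM in any library. Cela1 was at 9.13 to 51.1 CPM in mutant mice and 16.02 to 23.6 CPM in controls.

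**Figure D5:**
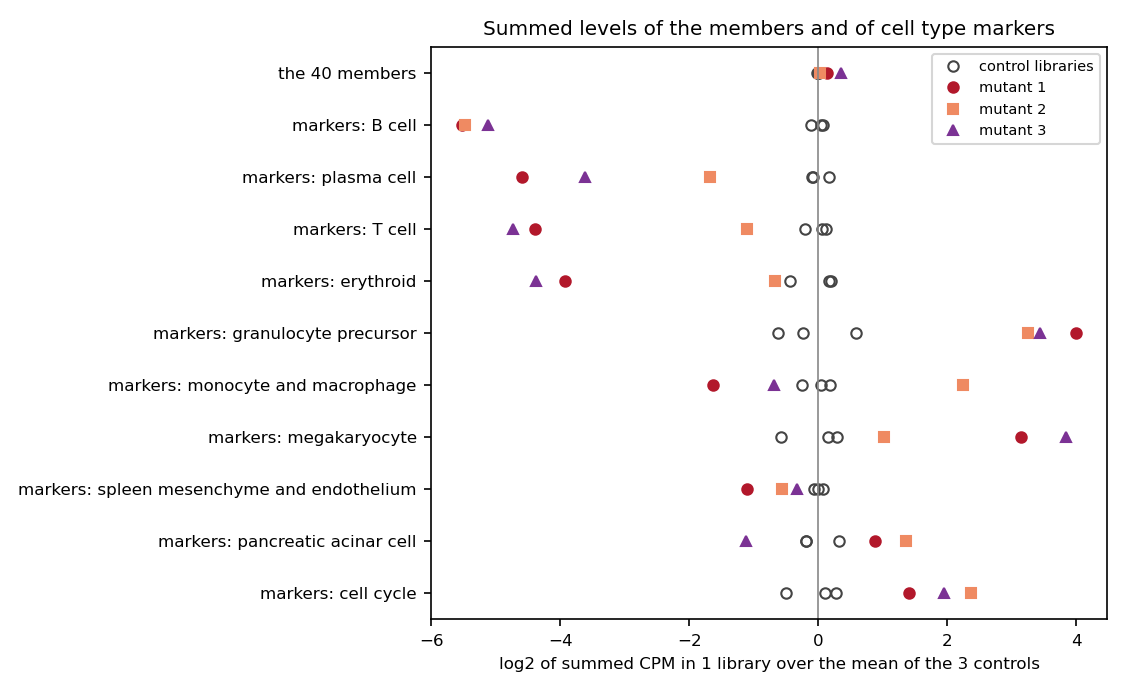
Summed CPM of the 40 genes and of each marker list in each library, as log2 over the mean of the 3 controls (x axis); open circles are controls, filled symbols mutants. The sum of the 40 genes stays near 0, B-cell markers lie far to the left in every mutant, and mutant 2 stands apart for plasma cell, T-cell and monocyte markers.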

How the data were processed

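Spleen pieces were snap frozen, and a stranded poly-A kit was used on 50 ng of total RNA from each, per the labels' protocols. The authors deposited whole-number counts per Ensembl gene for the 6 libraries, with no normalization. STAR 2.5.3a, limma, mm10 and GRCm38 are named in the submitters' processing notes. For the annotation release, the strand setting, multi-mapping reads and filters, the entry is: not given in the sources used here.

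Symbols were found for 31669 gene IDs and none for 102. Gene positions (GRCm38) and exon lengths came from GENCODE, and promoters from RefSeq (GRCm38.p6). Promoter windows are in genome coordinates counted from 1.

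CPM are counts per 1000000 counts of a library. Differences were fitted in R 4.3.3 with edgeR 4.0.16 (filterByExpr, TMM factors, robust quasi-likelihood test) on all 6 libraries, with Benjamini-Hochberg adjustment over 19573 genes and a threshold of 0.05. Standard errors are the fitted log2 fold change over the square root of F. Alternatives (17) changed the filter, the factors, the tool (DESeq2 1.42.0, limma 3.58.1) or the libraries. The fit was run on simulated data in which both groups had the same spread, unlike the mutants and controls here. Calls under unequal spread were not tested by it.

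All 40 genes are named, with the 2 genes of smallest p in each group of other pathway genes and the most abundant gene of each marker list. The other pathway and marker genes were named after their values were seen. The 40 genes, the lists and the motifs were chosen with earlier results of these data known. Replicate numbers follow the order of the samples and pair nothing. Protein sequences were not analysed here.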

Additional observations from a re-analysis of the deposited data

How the results depend on the processing

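Mzb1, P4hb, Pdia4, Syvn1 and Txndc5 passed in all 14 alternatives that kept the 3 controls, and Eif2ak3 and Sdf2l1 in 13 of them. With 1 library left out, 0 to 10 of the 40 genes were higher and 0 to 12 lower, 0 to 29 of the 94 other pathway genes were higher and 2 to 12 lower, and the median of the 40 genes lay between -0.070 and 0.15. In those fits 0.601% to 29.0% of all genes tested passed. Without a control the residual spread rests more on the mutants, by construction. Among the 40 genes, 3 were higher with no filter on low counts, 2 with upper-quartile factors and 2 with library totals, against 10 by DESeq2 and 8 by limma-voom with sample weights, and 5 were lower with a variance for each group. In these settings, in this order, 5.88%, 11.3%, 11.5%, 28.9%, 18.7% and 7.46% of all genes tested passed. Other pathway genes gave 7 higher with upper-quartile factors, 29 by DESeq2, and 18 higher and 11 lower with sample weights. No called gene changed direction. Among the uncalled ones, the log2 fold change turned with upper-quartile factors for Hsp90b1 (-0.084), Dnajc3 (-0.058) and Creld2 (-0.071), and for Hsp90b1 with limma-voom (-0.013) and with a variance for each group (-0.012). With 1 library left out, both signs occurred for Hsp90b1 (-0.15 to 0.23), Dnajc3 (-0.13 to 0.28), Creld2 (-0.12 to 0.13), Sel1l (-0.26 to 0.17), Dnajb9 (-0.24 to 0.10), Atf6 (-0.62 to 0.064) and Atf4 (-0.25 to 0.0093). The cause was not tested. No paired analysis was possible because the labels carry no replicate numbers that the groups share. The lowest count of the 40 genes was 89, and no fit at a lower depth was made.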
